A study of Danio rerio with 12 samples.

Results

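Partly methylated CCCGGG sites were the 227 sites whose methylation level, pooled over all 12 libraries, lay from 10% to under 70%. They were chosen among 64466 listed sites by 3 further conditions: at least 240 reads summed over the libraries, 1 or 2 other listed sites within 1000 bp, and a position outside the long arm of chromosome 4 (27000000 and above). Of the 2227 sites that met these conditions at any level, the 227 made up 10.2%, beside 237 sites under 10%, 323 from 70% to under 90% and 1440 at 90% or more. The members were chosen by their pooled methylation level, which is given below as a description.

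Pools of 20 whole zebrafish embryos (Danio rerio, a wild-type import bred in the submitters' laboratory) were collected at 72 hours post fertilization. The 4 control pools received no exposure, 4 pools received 0.1 mM sodium arsenite for 72 hours and 4 received 1 mM for 72 hours, with the arsenite diluted in the medium that embryos of every group were rinsed in. The study asked whether this soluble inorganic arsenic compound alters DNA methylation, and digital restriction enzyme analysis of methylation (DREAM) was the assay. In DREAM, SmaI cuts unmethylated CCCGGG sites and XmaI then cuts the rest, so the end of each sequenced fragment shows whether its site was methylated. Nothing in the labels ties a pool to separate parents or spawns, so p-values measure only the spread between these pools.

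DNA methylation in vertebrates sits mainly on the cytosine of CpG pairs, where DNMT1 copies it after replication and DNMT3 enzymes add it anew, while TET enzymes start its removal. Most CpGs of a zebrafish embryo are methylated and CpG-rich promoters are not, so sites in between are a minority. A level in between can come from cells that differ, from the parental alleles of a cell, or from embryos of a pool that differ. In pooled whole embryos these cannot be told apart.

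Libraries held 1425613 to 1822127 reads at listed sites, and 6.37 to 6.82% of them fell on the 227 sites. Summed depth of a site ranged from 240 to 41449 reads with a median of 1989. Of the 227, 195 had at least 20 reads in every library and were tested. In those, the median depth was 180 to 283 reads per library. The other 32, at 12.8 to 69.8% and with at most 801 reads in all, failed that minimum and entered no test described below unless named.

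The members were spread unevenly over the window. Pooled levels had a median of 48.1%, with 17 sites from 10 to under 20%, 24 in the twenties, 40 in the thirties, 37 in the forties, 38 in the fifties and 71 from 60 to under 70%. Just inside the lower bound lay sites at 11.5%, 12.1% and 12.1%, on chromosome 10 at position 769899, chromosome 21 at 16613428 and chromosome 25 at 32975413 (danRer7). Just outside it were sites at 9.71%, 9.59% and 9.14%, on chromosome 6 at position 30116352, chromosome 25 at 36458609 and chromosome 1 at 53124860. The upper bound fell where sites were dense: the nearest members were at 69.8%, 69.6% and 69.5%, on chromosome 18 at positions 23462012 and 12131707 and chromosome 16 at 29498751, and the nearest sites beyond it at 70.02%, 70.05% and 70.07%, on chromosome 3 at 10859228 and chromosome 19 at 44494275 and 28877799.

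The authors' adjustment for enzyme efficiency, taken from spiked standards, moved the members upward. Adjusted levels lay above the unadjusted shares by 2.58 to 6.05 points with a median of 5.22, and 35 of the 227 then averaged 70% or more. Unadjusted shares of reads are used from here on. Single libraries scattered around the pooled levels that chose the sites, by a median range over the 12 libraries of 13.3 points (3.32 to 52.0). As a description, 141 of the 195 tested sites stayed inside the window in all 12 libraries, 45 reached 70% or more in at least 1 and 9 dropped under 10% in at least 1. Pearson's r across the 195 sites was 0.870 to 0.940 for any pair of libraries, as a description, since the sites of a library share its depth and are not independent.

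Members lay on 24 of the 25 chromosomes. Chromosome 1 had none among its 74 sites that met the depth and spacing conditions, and chromosomes 3 and 21 had 3 of 87 and 3 of 83. Chromosome 13 had the most, 19 of 85 (22.4%), followed by chromosome 24 with 13 of 82 (15.9%) and chromosome 18 with 15 of 100 (15.0%). The median share over chromosomes was 10.5%. These shares were not tested. Merging members less than 10000 bp apart left 169 places, 115 of a single site, 51 of 2 sites, 2 of 3 and 1 of 4, the last on chromosome 17 from 12757640 to 12768179. Genes at these positions are not named, as no annotation of danRer7 was used here.

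Partly methylated sites lay next to one another. Of the 184 members whose nearest listed site also had 240 reads or more, 106 (57.6%) had a nearest site that was itself at 10 to under 70%. The other nearest sites were at 90% or more for 42 members, at 70 to under 90% for 33 and under 10% for 3. For comparison, 32 of 233 sites (13.7%) at 70 to under 90%, 39 of 849 (4.59%) at 90% or more and 3 of 208 (1.44%) under 10% had a nearest site in the partly methylated window. These shares are descriptions over sites. A pair of members that are each other's nearest site enters from both sides. Spacing itself was alike, with the nearest site at 100 to 600 bp for 84.6% of members and 84.8% of the other sites of the same depth and number of neighbours.

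Neighbouring CCCGGG sites bound 1 restriction fragment, which is read from both ends. A neighbour within 1000 bp whose summed depth was equal to within 10% was found for 128 members, at a median distance of 198 bp (37 to 659 bp). The far end was at 10 to under 70% for 87 of these, at 70 to under 90% for 27, at 90% or more for 12 and under 10% for 2. Both ends had unlike levels in many fragments, with a median absolute difference of 12.2 points and Pearson's r of 0.519 across the 128 (Spearman's rho 0.520). That correlation is a description, as both ends share a depth and many fragments enter it from each side.

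In 42 fragments both ends were tested members. Their pooled levels differed by 0.0269 to 33.6 points with a median of 8.32. One end was higher than the other in all 12 libraries in 29 of the 42 fragments, and in 14 the 12 values of one end did not overlap the 12 of the other. The deepest of them by its shallowest library, 245 bp on chromosome 19 from 3556985 to 3557230, had at least 2212 reads at each end in every library. Its first end was at 53.4%, 59.5%, 54.3% and 52.3% in controls, 56.1%, 54.0%, 55.3% and 53.9% at 0.1 mM and 55.1%, 54.1%, 55.8% and 57.1% at 1 mM. Its second end was at 31.5%, 34.9%, 31.9% and 32.4% in controls, 33.2%, 32.9%, 32.7% and 33.5% at 0.1 mM and 32.9%, 31.8%, 32.5% and 34.2% at 1 mM. The first end was the higher in every pool, by 22.2 points in the pooled levels, while the 3 groups overlapped at either end.

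The next pairs by the depth of their shallowest library showed both patterns. On chromosome 18 the ends at 43548956 and 43549158 averaged 66.0% ± 1.83 and 41.2% ± 1.08 over controls, 66.5% ± 0.598 and 42.4% ± 1.18 over the 0.1 mM pools and 67.1% ± 2.16 and 43.4% ± 1.92 over the 1 mM pools (SD, n = 4). On chromosome 25 the ends at 2792840 and 2793076 were close, at 62.5% ± 1.80 and 64.2% ± 2.94 in controls, 61.1% ± 2.47 and 62.8% ± 2.02 at 0.1 mM and 62.7% ± 1.52 and 64.4% ± 2.21 at 1 mM. The largest gap among the 42, 33.6 points, was on chromosome 24 between position 5211684 at 65.0% and position 5211987 at 31.4%; it was chosen after its values were seen.

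**Figure D1:**
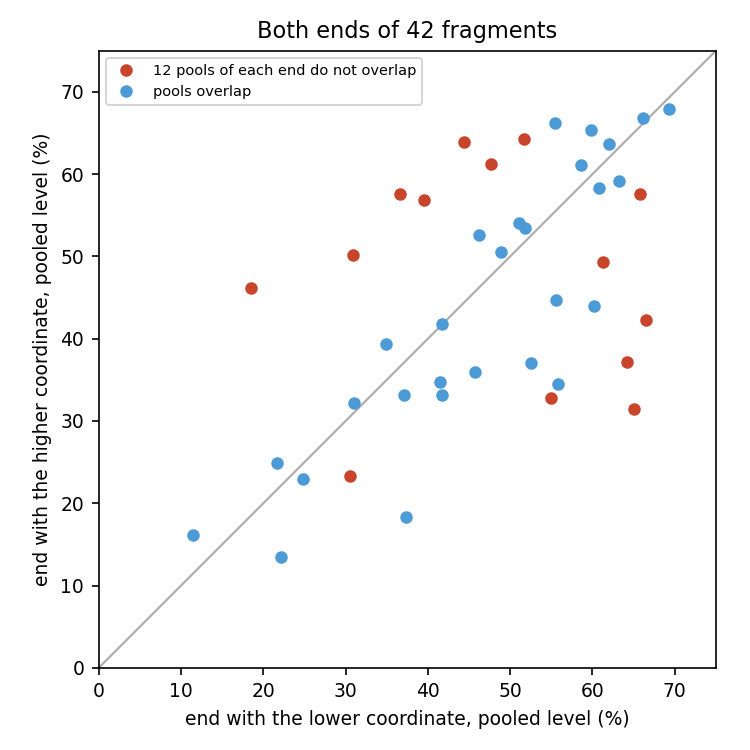
Pooled methylation level (%) at both ends of 42 restriction fragments whose ends were both tested members, the end with the lower coordinate on the x axis and the other on the y axis; each point is 1 fragment and the line marks equal levels. The 14 fragments in red, in which the 12 values of one end did not overlap the 12 of the other, lie away from the line on both sides.

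Pools that stood above their group at one end of a fragment also tended to do so at the other end. The correlation over 12 pools of the deviations from the group mean was above 0 in all 42 fragments, with a median r of 0.743 (0.166 to 0.965). Both ends are read from the same fragments, so they can share counting error, as far as the ends of a fragment agree in methylation. They also share any shift of a whole library. Control pool 2, for one, averaged 48.8% over the members against 45.2 to 46.4% in the other controls. The part of either in these values, or in the pair correlations below, was not tested. Members on different fragments were not compared. For the 3 pairs deepest in their shallowest library the levels themselves were correlated over the 12 pools. Pearson's r was 0.802 on chromosome 19 (permutation p = 0.00392, adjusted over the 3 pairs 0.00588), with Spearman's rho of 0.622 (permutation p = 0.0357, adjusted 0.0357). Without the 2 pools farthest from the median, r there was 0.390, so that relation rests on those pools. On chromosome 25, r was 0.855 (permutation p = 0.0007, adjusted 0.0021) and rho 0.769 (permutation p = 0.00504, adjusted 0.0151), with r of 0.810 without the 2 farthest pools. On chromosome 18, r was 0.419 (permutation p = 0.183, adjusted 0.183) and rho 0.650 (permutation p = 0.0253, adjusted 0.0357), with r of 0.716 without the 2 farthest.

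The spread between pools of one group exceeded counting error at the deep sites. It was measured as the chi-square of methylated and unmethylated reads between the pools of a group, summed over the 3 groups and divided by its 9 degrees of freedom, so that counting error alone gives about 1. The median over the 195 tested members was 1.62, and 74 of them (37.9%) exceeded 2. This ratio was 1.32 in the 69 sites under 1500 reads and 1.55 in the 58 sites of 1500 to under 6000 reads. In the 68 sites of 6000 reads or more it was 2.33. Such a ratio rises with depth where the extra spread in points is the same, so it does not show that deep sites varied more. In points, the median SD between replicates fell over these classes, from 6.96 to 3.98 and 2.09. Counting error gives 5.74, 3.02 and 1.43 there. Taken alone, control pools gave a median of 1.68, the 0.1 mM pools 1.36 and the 1 mM pools 1.29, and these were not tested against each other. These per-group values rest on fewer degrees of freedom, where counting error alone gives a lower median, so they are not on the scale of 1.62.

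Other kinds of site give the scale. The chi-square per degree of freedom had a median of 1.58 in the 271 tested sites at 70 to under 90% and of 1.83 in the 124 of these with 6000 reads or more. It was 1.04 in the 195 tested sites under 10%, and of the 1204 at 90% or more 15.4% exceeded 2. The spiked standards, DNA of defined methylation added before digestion, were the same in every library. Their 14 ends at 10 to under 70% (20.6 to 45.8%) had a median of 2.45 (0.365 to 4.31) and a replicate SD of 0.661 to 2.07 points. The 31 tested members within the depth range of those standards (13469 to 74273 reads) had a median of 2.13, and 3 of them exceeded 4.31, the largest value among those 14 ends. Their median replicate SD was 1.72 points, where counting error gives 1.23, against 1.25 and 0.874 at those ends. Of the 31, 8 had an SD above the largest of those ends. Depth was not equal within that range: members reached at most 41449 reads, while those ends had a median of 39909. Of the 4 standard ends outside 10 to 70%, those at 0.945% and 0.848% had values of 14.6 and 16.9, with replicate SDs of 0.573 and 0.581 points, and both near 99.3% had values under 1.13. The part of the assay in the members' spread was not tested.

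**Figure D2:**
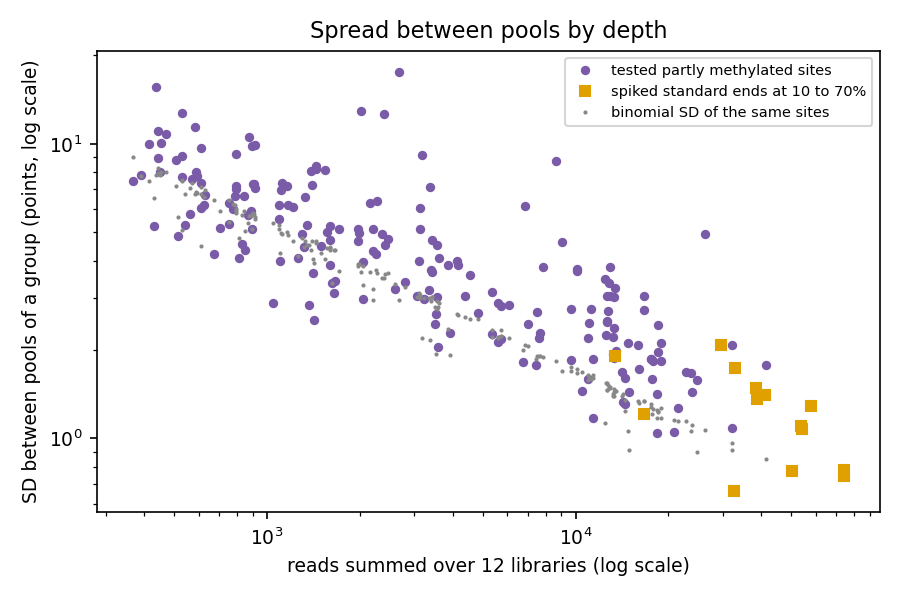
SD of methylation between pools of a group (points, log scale), averaged over the 3 groups as variances, against reads summed over 12 libraries (log scale). Purple points are the 195 tested members, grey dots the binomial SD that counting error gives at those members, and yellow squares the 14 spiked standard ends at 10 to under 70%, which lie at 0.661 to 2.07 points; several members stand far above the grey dots.

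A few members varied between pools far beyond the standard ends at 10 to under 70%, whose largest value was 4.31. The standard ends under 1%, at 14.6 and 16.9, lay above the sites on chromosome 4 (12.8) and chromosome 18 (12.2) given below. In points the order was reversed, with replicate SDs of 0.573 and 0.581 at those ends against 12.6 and 7.14 at those sites. Summed depth was also unlike, at 54163 and 55810 reads against 2390 and 3376. The largest chi-square per degree of freedom, 32.8, belonged to chromosome 23 position 25309283. It was at 57.8%, 29.0%, 7.97% and 15.8% in controls, 31.2%, 22.8%, 17.8% and 30.0% at 0.1 mM and 19.8%, 18.8%, 20.8% and 60.0% at 1 mM, with 128 to 307 reads per library. One control pool and one 1 mM pool stood far above the rest, with Wilson 95% intervals of 51.4 to 63.9% and 51.7 to 67.7%, while another control pool was at 5.42 to 11.6%. Without control pool 1 the chi-square per degree of freedom there was 17.3, and without 1 mM pool 4 it was 26.2. These Wilson intervals, and the limit given for a count of 0, cover counting error only. Its nearest listed site lay 979 bp away with 186 reads in all, so this site had no end of matched depth.

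Wide spread at chromosome 11 position 4636388 (23.5 per degree of freedom) was present in every group. Levels there were 67.9%, 64.0%, 56.0% and 53.3% in controls, 56.0%, 47.8%, 58.6% and 69.2% at 0.1 mM and 59.0%, 47.8%, 55.6% and 72.4% at 1 mM, with 545 to 848 reads per library. The groups overlapped throughout. At chromosome 21 position 25325253 (22.3), one of the 4 members deepest in their shallowest library with 1785 to 2711 reads, the pools were at 52.0%, 56.2%, 43.7% and 40.6% in controls and 51.7%, 50.3%, 47.8% and 41.9% at 0.1 mM but at 46.9%, 49.6%, 49.2% and 49.2% at 1 mM. The per-group values were 48.6, 17.0 and 1.35, and this difference in spread was not tested. Without control pool 2 the value over all groups was 14.8. Neither site had an end of matched depth: their nearest sites, 232 and 212 bp away, had 1712 and 656 reads in all against 8640 and 26331.

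The site at chromosome 25 position 36459111 (17.3) had 0 methylated of 301 reads in control pool 3, which allows a share of up to 0.997%. The other controls were at 19.8%, 21.5% and 9.36%, the 0.1 mM pools at 23.6%, 9.59%, 29.6% and 13.1% and the 1 mM pools at 22.0%, 5.33%, 14.6% and 23.1%. Without that pool the chi-square per degree of freedom was 11.5. The far end of its fragment, 502 bp away, was at 9.59% pooled, just outside the window. Chromosome 4 position 4325639 (12.8) was at 39.6%, 51.7%, 51.4% and 77.2% in controls, 56.5%, 55.1%, 77.0% and 40.8% at 0.1 mM and 48.0 to 53.4% at 1 mM, with 134 to 250 reads. Without control pool 4 its value was 7.25. Its nearest listed site, 238 bp away, had 4 reads in all. Chromosome 18 position 14570301 (12.2) had its lowest pool at 8.03% among controls, 4.60% at 0.1 mM and 7.90% at 1 mM, and its highest at 23.5%, 22.4% and 24.2%, beside a far end at 95.3% pooled. In all 6 sites of widest spread the range of every group overlapped that of the others.

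**Figure D3:**
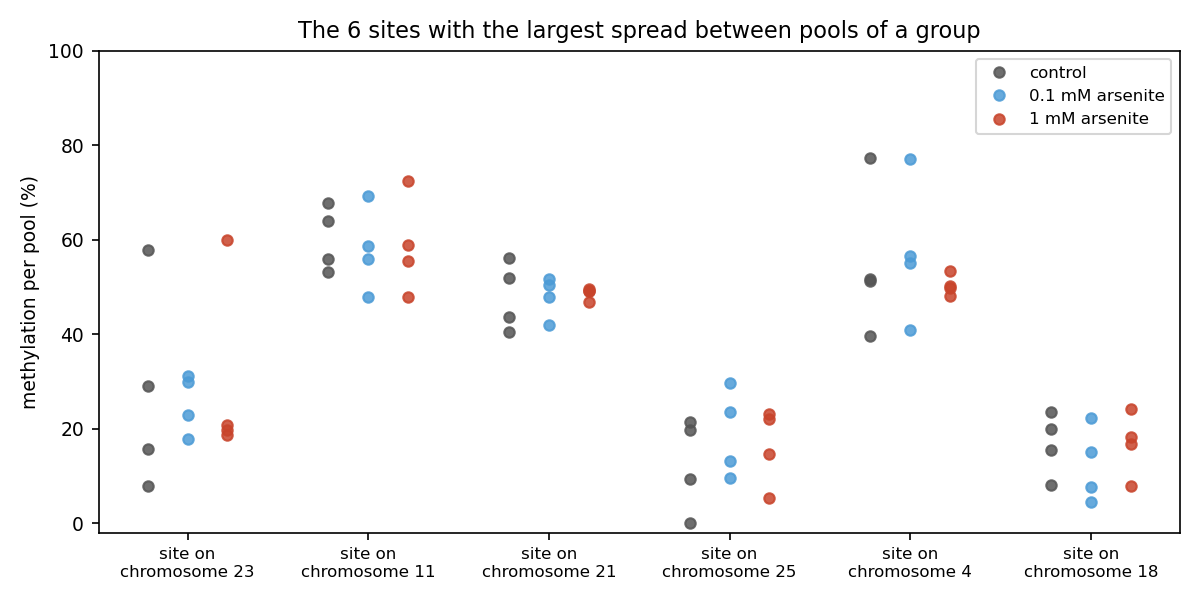
Methylation (%) in each of the 12 pools at the 6 tested members with the largest spread between pools of a group; each point is 1 pool, coloured by group. On chromosome 23 a control pool at 57.8% and a 1 mM pool at 60.0% stand above all others, and on chromosome 25 a control pool had no methylated read.

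The per-group measure of spread ranked the sites only loosely alike in the 3 groups. The rank correlation across the 195 sites of the per-group chi-square was 0.296 between control and 0.1 mM pools, 0.170 between control and 1 mM and 0.121 between the 2 exposures, as descriptions. It exceeded 2 in every group at 17 sites and in no group at 69.

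Averaged over the 227 members, methylation was 45.2%, 48.8%, 46.4% and 45.8% in the control pools, 46.0%, 45.7%, 47.2% and 46.0% at 0.1 mM and 47.6%, 46.3%, 48.1% and 48.2% at 1 mM. Control pool 2 was the highest of the 12, and the groups overlapped. Group means were 46.5% ± 1.60, 46.2% ± 0.690 and 47.5% ± 0.856 (SD, n = 4). The 1 mM pools thus averaged 1.01 points above controls and 1.32 above the 0.1 mM pools, and the 0.1 mM pools were -0.316 points from controls. The median over members gave differences of 1.90 points for 1 mM and 0.0143 for 0.1 mM against control, the latter with the opposite sign. No test is given for these averages. The mean of the unadjusted levels differed by less than the SD of the control pools for both comparisons with control. For 1 mM this depended on the measure. The median over members differed by more than its control SD of 1.54 points, and the mean of adjusted levels by more than its control SD of 1.41. The read-weighted level differed by 0.670 points, less than its control SD of 1.74. Without control pool 2 these differences were 1.77 and 0.444 points, the latter with the opposite sign, and without control pool 1 they were 0.557 and -0.768. The 0.1 mM difference was also -0.572 without control pool 4, -0.134 without 0.1 mM pool 2 and -0.653 without 0.1 mM pool 3. With adjusted levels the differences from control were 1.45 points at 1 mM and -0.254 at 0.1 mM, and the correction factor was 1.216 to 1.285 in controls, at most 1.294 at 0.1 mM and 1.198 to 1.324 at 1 mM.

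**Figure D4:**
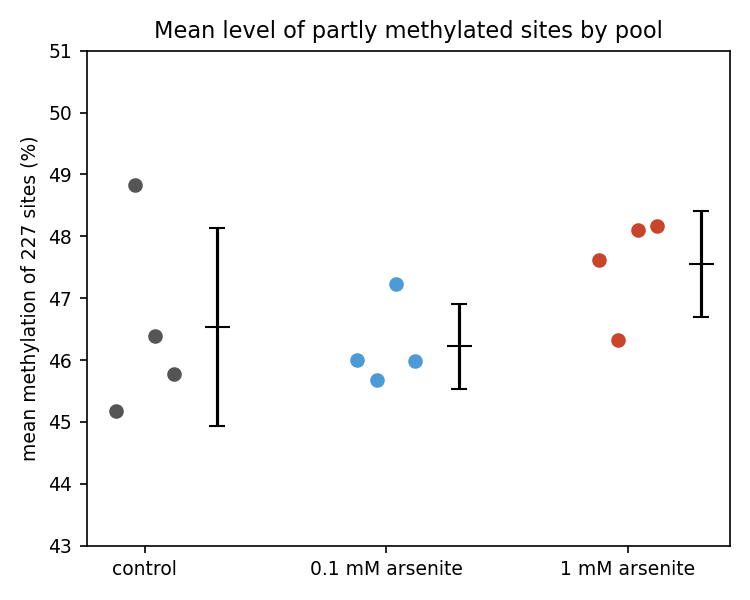
Mean methylation (%) of the 227 partly methylated sites in each pool by group; each coloured point is 1 pool, and the black bar is the group mean with its SD (n = 4). The y axis does not start at 0. Control pool 2, at 48.8%, lies above every exposed pool, and the other controls lie at 45.2 to 46.4%.

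No member passed the test at 1 mM against control. The test was edgeR's quasi-likelihood F test of methylated against unmethylated reads, fitted to 2228 sites with p-values adjusted by Benjamini-Hochberg and called under 0.05. It called 0 of 195 members, beside 0% of all sites, and limma on log2 odds called 0 as well. At an unadjusted p under 0.05 there were 6 members (4 higher, 2 lower) with edgeR, beside 4.67% of all sites, and 6 with limma, beside 4.62%. Groups did not overlap at 2 members, both higher at 1 mM, beside 1.97% of all sites in either direction and 1.21% higher. Means lay 10 points or more apart at 7 members (3.59%), beside 0.494% of all sites. The tested members also had a median SD between replicates of 4.00 points, against 2.50 in sites at 70 to under 90%, and the part of that in this count was not tested. The count also depends on the level by which members were chosen. Counting error gives a median SD of 3.03 points in tested members and 0.766 in the 1204 tested sites at 90% or more. The median difference of the tested members was 0.612 points (0.037 over all sites), with 116 of 195 higher (59.5%, against 53.9% of all sites). The median change in log2 odds was 0.04, as it was over all sites. The limma 95% interval lay within 10 points of 0 at 113 of the 195 members (57.9%, against 91.7% of all sites) and within 5 points at 9. Intervals turned from log odds into points are widest at middle levels. As the members were chosen by level, their lower share follows in part from that choice.

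The 2 members whose groups did not overlap were the ones with the smallest p. Chromosome 8 position 34421146 was at 57.7%, 59.1%, 60.4% and 63.4% in controls, 61.6%, 62.9%, 67.6% and 60.1% at 0.1 mM and 71.0%, 67.9%, 64.2% and 68.7% at 1 mM. The 1 mM mean stood 7.77 points above that of controls (limma 95% interval 2.02 to 13.0; edgeR adjusted p = 0.705; 301 to 662 reads per library). All 4 pools at 1 mM lay above the controls, but the site did not pass. The far end of its fragment, 128 bp away at position 34421018, averaged 82.4% ± 2.69 (SD, n = 4) among controls against 84.3% ± 2.45 at 1 mM, with overlapping groups and an edgeR adjusted p of 0.942. Chromosome 4 position 17905642 was at 53.6%, 61.6%, 57.2% and 62.4% in controls and 65.5%, 67.1%, 63.3% and 67.1% at 1 mM, a difference of 7.06 points (0.947 to 12.6; edgeR adjusted p = 0.934). The 0.1 mM pools were at 62.3%, 61.9%, 56.3% and 63.0%. Its far end, at position 17905506, averaged 79.7% ± 3.63 among controls against 85.3% ± 1.61 at 1 mM, with an edgeR adjusted p of 0.798.

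The other 2 members of smallest p were shallow. Chromosome 7 position 49624195 gave 32.6%, 35.6%, 41.1% and 35.2% in controls, 35.9% ± 4.27 (SD, n = 4) over the 0.1 mM pools and 24.6%, 19.3%, 32.8% and 26.8% at 1 mM, from 43 to 91 reads per library. The difference of -10.3 points from control had a limma 95% interval of -16.4 to -2.92 and an edgeR adjusted p of 0.942. Chromosome 23 position 26652709 gave 47.5%, 36.2%, 49.1% and 39.2% in controls, 42.9%, 45.2%, 53.1% and 53.7% at 0.1 mM and 62.0%, 45.3%, 62.2% and 54.7% at 1 mM, from 47 to 84 reads. The 1 mM mean stood 13.1 points above controls (2.70 to 22.4; edgeR adjusted p = 0.942). A 1 mM pool at 45.3% lay within the control range of 36.2 to 49.1%.

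**Figure D5:**
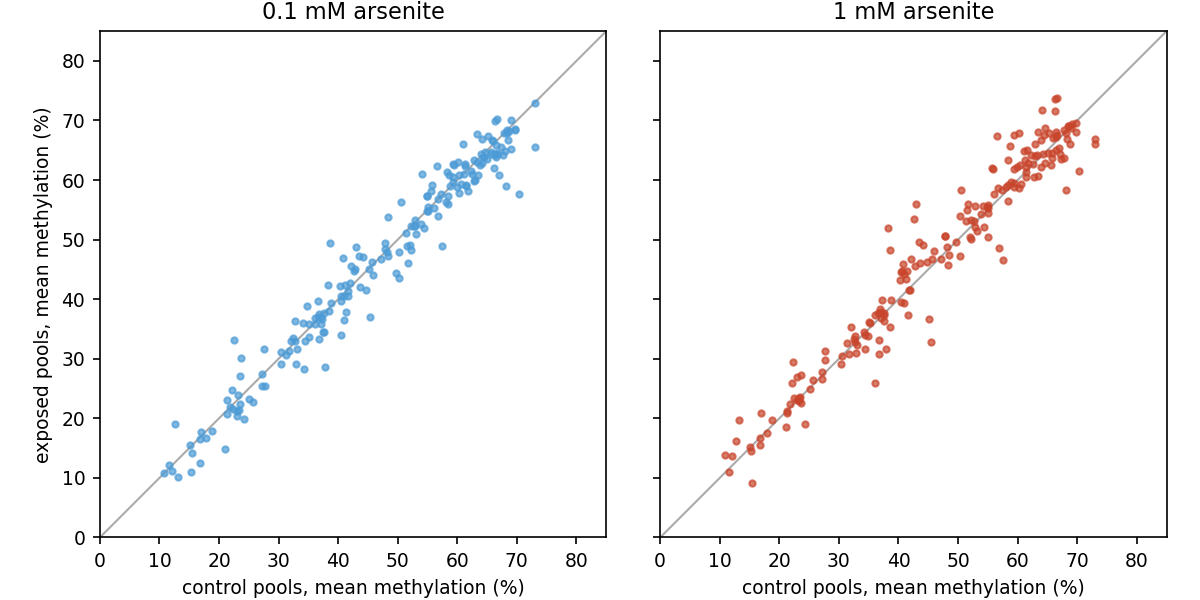
Mean methylation (%) of the 4 control pools on the x axis against the mean of the 4 exposed pools on the y axis, 0.1 mM on the left and 1 mM on the right; each point is 1 of the 195 tested members and the line marks equal levels. Points lie along the line in both panels, with 3 members at 0.1 mM and 7 at 1 mM 10 points or more away from it.

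At 0.1 mM against control, again 0 of 195 members were called by edgeR, beside 0% of all sites, and 0 by limma. At an unadjusted p under 0.05 there were 5 members, all lower, beside 5.16% of all sites in either direction and 2.56% lower, and 4 with limma, beside 5.07%. Groups did not overlap at 5 members (2 higher, 3 lower), beside 2.24% of all sites. Means were 10 points or more apart at 3 (1.54%), beside 0.404% of all sites. This count too depends on the level by which members were chosen. The part of the members' SD between replicates in this count and in the interval share was not tested. The median difference was -0.463 points (-0.000175 over all sites), and 114 of 195 members were lower; 41.5% were higher, against 49.1% of all sites. The median change in log2 odds was -0.0267, against -0.00189 over all sites. The 95% interval lay within 10 points of 0 at 124 members (63.6%, against 91.5% of all sites), a share that depends on the level by which members were chosen.

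The site with the smallest p, chromosome 19 position 33826704, was at 12.2%, 18.5%, 14.1% and 16.4% in controls, 8.65%, 10.0%, 12.1% and 13.5% at 0.1 mM and 13.8%, 17.1%, 12.8% and 14.6% at 1 mM (265 to 385 reads). The 0.1 mM mean was -4.21 points from that of controls (limma 95% interval -7.00 to -0.532; edgeR adjusted p = 0.939), and 1 of the 0.1 mM pools lay within the control range. Its far end, also a member, was at 23.0% ± 4.00 and 21.3% ± 1.35. Chromosome 6 position 43956014 was deeper, with 1307 to 1976 reads, at 31.0%, 35.3%, 32.4% and 33.1% in controls, 28.1%, 31.0%, 30.5% and 27.1% at 0.1 mM and 33.4%, 29.1%, 30.4% and 30.9% at 1 mM. The difference of -3.77 points did not pass (-8.14 to 1.01; edgeR adjusted p = 0.941). Its far end at position 43956212, 198 bp away and a member too, averaged 52.2% ± 2.34 among controls against 48.3% ± 1.55 at 0.1 mM, a difference of -3.82 points (edgeR adjusted p = 0.961). At chromosome 18 position 14415201 the groups did not overlap: controls were at 19.1%, 25.0%, 18.4% and 21.7% and the 0.1 mM pools at 15.5%, 15.7%, 15.5% and 12.5%, with 18.6% ± 4.77 at 1 mM. The difference was -6.25 points (-10.2 to -1.11; edgeR adjusted p = 0.939). Chromosome 18 position 27789006 averaged 37.8% ± 4.09 over controls and 28.5% ± 8.49 over the 0.1 mM pools, also with an edgeR adjusted p of 0.939. There the difference of -9.28 points was -5.94 without 0.1 mM pool 1.

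Between the doses, edgeR called 0 of 195 members, beside 0% of all sites, and limma 0. At an unadjusted p under 0.05 there were 5 members (4 higher at 1 mM), beside 4.71% of all sites, and 3 with limma, beside 5.12%. Groups did not overlap at 4 members, all higher at 1 mM, beside 2.47% of all sites in either direction and 1.71% higher. Means were 10 points or more apart at 3 members (1.54%), beside 0.314% of all sites. Here too the count depends on the level by which members were chosen, and the part of the members' SD between replicates in this count and in the interval share was not tested. The median difference was 1.13 points (0.0392 over all sites), and 135 of 195 members (69.2%) were higher at 1 mM, against 54.1% of all sites; the members of a library share that library, so this share is not a count of independent sites. The median change in log2 odds was 0.0725, against 0.038 over all sites. The 95% interval lay within 10 points of 0 at 107 members (54.9%, against 91.3% of all sites), a share that depends on the level by which members were chosen.

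The 4 members of smallest p between the doses all had at most 128 reads in each library. Chromosome 9 position 56955716 averaged 10.2% ± 2.19 over the 0.1 mM pools, 19.7% ± 5.55 over the 1 mM pools and 13.2% ± 5.94 over controls, from 20 to 69 reads. Chromosome 24 position 10607320 was at 46.0% ± 6.94 and 56.1% ± 6.19, with 51.7% ± 2.40 in controls, while its far end was at 82.2% ± 6.03 and 82.4% ± 4.47. Chromosome 22 position 37181647 was at 54.0%, 70.8%, 65.4% and 57.8% at 0.1 mM and 85.7%, 79.4%, 42.9% and 86.4% at 1 mM, so that 1 pool at 1 mM lay below all others. The difference of 11.6 points between the doses was 21.8 without that pool, 7.55 without 1 mM pool 1 and 7.33 without 1 mM pool 4. The fourth was chromosome 7 position 49624195, described above, at 35.9% ± 4.27 and 25.9% ± 5.59. The edgeR adjusted p of all 4 was 0.948.

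The 4 members with the most reads in their shallowest library are given next. The deepest, chromosome 12 position 27091805 with 2926 to 4186 reads per library, averaged 52.2% ± 2.66 over controls, 52.2% ± 1.24 over the 0.1 mM pools and 53.3% ± 0.902 over the 1 mM pools (SD, n = 4). Its limma 95% interval for 1 mM against control was -4.26 to 6.27 points. Both ends of the chromosome 19 fragment given first were next, at 54.9% ± 3.19, 54.8% ± 1.08 and 55.5% ± 1.26, and at 32.7% ± 1.55, 33.1% ± 0.337 and 32.9% ± 1.01. The fourth was the chromosome 21 site of wide spread, at 48.1% ± 7.24, 47.9% ± 4.35 and 48.7% ± 1.26. Group means of each of the 4 sites differed by less than the SD of the control pools.

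When the coverage minimum was set to the 240 summed reads of the rule, all 227 members entered the test and edgeR called 0 of them in each comparison. The smallest adjusted p of the 32 sites added was 0.939 at 1 mM against control, 0.914 at 0.1 mM and 0.919 between the doses.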

How the data were processed

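The deposited files list methylated, unmethylated and total reads for each CCCGGG site of each library. Their unit is labelled expected count only because the authors put a correction factor in a read column: site values were whole, needing no rounding. The site values themselves are plain counts of reads, made before the files were deposited. Raw and adjusted levels, both in percent, were deposited too: the raw one is the methylated share after adding 0.5 to both read types (gap at most 0.005 points), and the adjusted one applies the library's factor (gap at most 0.0145 points). The build was danRer7, per the submitters' processing notes, and the aligner is not given in the sources used here. A joint table of 1533 sites, with 115 members, held the same values. It had 0 columns without a sample. Rows of standards, 2.35 to 5.65% of reads, were kept apart.

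Levels here are methylated shares of reads. Sites with at least 20 reads in every library and reads of both types were tested with edgeR 4.0.16 in R 4.3.3, with a coverage term per library, a group term on methylated reads and all 12 libraries, and Benjamini-Hochberg adjustment over 2228 sites. limma 3.58.1 gave intervals from log2 odds (pseudocount 1). The tests were checked on simulated data in which only changes in odds larger than those of the named sites were planted. The simulated spread between pools had the same setting at every site. That check does not cover smaller changes or the members of widest spread. Correlations over pools used 100000 two-sided permutations in scipy 1.17.1 (Python 3.11.15, pandas 2.3.3). Named sites were the 4 of smallest p per comparison, the 6 of widest spread, the 4 deepest and the 3 deepest pairs of ends (both by the shallowest library), and the 3 on each side of each level bound. Members, rules and lists were chosen with earlier results of these data known. No 2 libraries of a group were alike in depth per site (18 pairs, chi-square per degree of freedom at least 7.42). No sequence is shown, as no genome of the files' build was used here.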

Additional observations from a re-analysis of the deposited data

Results flagged for a closer look

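In 6 of 75 groups of 4 pools, taken from the members' average and the named sites, 1 pool lay far from the remaining 3 by Dixon's criterion. Chance gives about 1 in 20, and many of these sites were picked for a small p or a wide spread. On chromosome 25 position 2793076, control pool 1 was at 59.8% with the other controls at 65.1 to 66.2%. On chromosome 18 position 14415201, 0.1 mM pool 4 was at 12.5% with the others at 15.5 to 15.7%. On chromosome 4 position 17905642, 0.1 mM pool 3 was at 56.3% with the others at 61.9 to 63.0%. On chromosome 21 position 25325253, 1 mM pool 1 was at 46.9% with the others at 49.2 to 49.6%. On chromosome 22 position 37181647, 1 mM pool 3 was at 42.9% with the others at 79.4 to 86.4%. On chromosome 23 position 25309283, 1 mM pool 4 was at 60.0% with the others at 18.8 to 20.8%.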

How the results depend on the processing

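No alternative changed the count of 0 called members in any comparison: minima of 10 or 50 reads per library, 240 summed reads, limma with a pseudocount of 1 or 0.5, only the groups compared, the replicate block, or leaving out each library (0 to 0 called). The labels do not say whether the replicate numbers pair libraries, and the main test used no pairing. Same-numbered libraries correlated at -0.0557 to 0.0706 in their deviations, with 0 of 12 pairs over 0.1, and 2 of 12 libraries correlated best with their own number. Those deviations hold counting error, so such correlations cannot show that no pairing exists. With the replicate block the differences in the members' average were by construction as reported, 1.01, -0.316 and 1.32 points. Leaving out single libraries gave 0.557 to 1.77 points for 1 mM against control, -0.768 to 0.444 for 0.1 mM against control and 1.12 to 1.73 between the doses. The median over members gave 1.90, 0.0143 and 1.88 points and read-weighted levels 0.670, -0.406 and 1.08. In settings chosen after seeing the data, members with a matched end gave 1.15, -0.0082 and 1.15 points. The median chi-square per degree of freedom was 1.62 and, in a setting chosen after seeing the data, 2.33 at 6000 reads or more. Depth limits it in the shallow sites. Within single groups it was 1.68 in controls, 1.36 in the 0.1 mM pools and 1.29 in the 1 mM pools. The single-group values rest on fewer degrees of freedom, where counting error alone gives a lower median, so they cannot be set against 1.62. A difference between the groups was not tested. With adjusted levels 198 sites met the rule, 192 of them members.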
